A study of Mus musculus with 8 samples.

Results

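The proteasome genes were taken from the array table by symbol: every gene measured on a probe set with 1 gene symbol that starts with Psma, Psmb, Psmc, Psmd or Psme and a digit, leaving out the interferon-inducible subunits Psmb8, Psmb9 and Psmb10. This gave 35 genes of the 14860 measured in this way, each on 1 of the 23332 probe sets. Their transcript levels differed little between MMTV-PyVT/HdhQ111/Q111 and MMTV-PyVT/HdhQ7/Q7 mammary tumours, with log2 fold changes between -0.28 and 0.36 and none past the threshold of an adjusted p of 0.05. As deposited, the spread among the HdhQ111/Q111 tumours was larger than the difference between genotypes. Replicates 3 and 4 had high levels of most proteasome genes, and replicates 1 and 2 had low ones. The spread depended on the scaling. After each array was centred on its median, the median SD of these genes in HdhQ111/Q111 tumours was 0.124, near the 0.129 of all genes.

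The proteasome is the protease that degrades proteins tagged with ubiquitin, including misfolded ones. Its 20S core is a barrel of stacked rings of alpha subunits, which gate the entrance, and beta subunits, some of which cut peptide bonds inside. A 19S regulatory particle, with a base that holds a ring of ATPases and a lid that holds the deubiquitinase Psmd14, binds the tagged protein, unfolds it and feeds it to the core. Polyglutamine-expanded huntingtin is itself a protein that misfolds and can be handled by this system.

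Affymetrix exon arrays had been hybridised with labelled DNA made from the total RNA of 4 tumours of each genotype, 1 array per tumour. All 8 tumours came from mice of FVB/CD1 strain carrying MMTV-PyVT, the polyoma middle T oncogene driven in mammary epithelium by a mouse mammary tumour virus promoter, so no tissue without the oncogene was compared. Both copies of the huntingtin gene (Hdh, now Htt) encoded 7 glutamines in HdhQ7/Q7 mice and 111 in HdhQ111/Q111 mice. Tumours were untreated and were collected at a set interval after detection, and since they were detected earlier in HdhQ111/Q111 mice, the age of the mouse and its genotype cannot be told apart. Whether the 4 tumours of a genotype grew in 4 different mice is not said in the sources used here, and the p-values cover no more than the spread among these arrays.

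Values are log2 signals as deposited. Htt, which the knock-in alters, was 1.63-fold lower in HdhQ111/Q111 tumours without overlap (log2 fold change -0.70 ± 0.08 (SE), limma adjusted p = 0.0700). Epithelial transcripts were high in all tumours: Epcam and Cdh1, which encode epithelial adhesion proteins, ranked above 98.8% of probe sets on every array. Of the 11 luminal markers measured, some ranked lower. The lowest rank on any array was 75.7% for Muc1, 76.8% for Cldn7 and 86.3% for Krt19. HdhQ111/Q111 replicates 3 and 4 stood apart in skeletal muscle markers: the mean log2 level of the 7 measured was 9.50 and 9.45 there, against 6.50 and 6.53 in replicates 1 and 2 and 6.61 to 7.88 in the HdhQ7/Q7 tumours. Ckm, the muscle creatine kinase, was at 10.11 and 10.23 in those tumours and between 7.21 and 8.56 in the other 6. In bulk tumour RNA, a change in the share of a cell type and a change in RNA per cell cannot be told apart.

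The median log2 fold change of the 35 genes was 0.03, beside 0.01 over all 14860 genes, and 22 genes had positive and 13 had negative values. With each array centred on its median, the 2 medians became -0.04 and -0.05 and the split 16 to 19, so small signs depend on the scaling. By limma, a linear model per probe set with p-values adjusted over all 23332 probe sets, 0 of 35 had an adjusted p under 0.05, against 0.0129% of all probe sets, and the smallest adjusted p was 0.572. None passed the thresholds that the study's methods use, at least 1.5-fold together with p at most 0.05 before adjustment, which 1.36% of probe sets passed. At an unadjusted p of at most 0.05 alone, 2 genes were higher in HdhQ111/Q111 tumours, Psma3 and Psmd9 (5.71% of the genes, against 5.2% of probe sets), and 1 was lower, Psmb11 (2.86%, against 2.68%). The tumours of the 2 genotypes did not overlap for 1 gene, Psmd9 (2.86%, against 4.43% of probe sets). These shares lay near those of the array as a whole. The direction of calls over the array was set by the scaling too: 66% of probe sets at that p were higher in HdhQ111/Q111 tumours as deposited and 29.8% after centring, when Psma3 remained higher and Psmb11 lower at that p and Psmd9 did not.

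Single tumours decided some of these counts, and the shares over the array moved as well, since 3 against 4 tumours overlap less often. Without HdhQ111/Q111 replicate 2, 4 genes were higher at an unadjusted p of at most 0.05 (Psma3, Psmc6, Psmd9 and Psmd10; 11.4%, against 6.74% of probe sets in that fit) and 5 did not overlap (those and Psmb11; 14.3%, against 9.07%). Without HdhQ7/Q7 replicate 4, 4 genes did not overlap (Psma3, Psmb11, Psmd9 and Psmd11; 11.4%, against 9.72%). Without HdhQ7/Q7 replicate 2, 2 genes did not (Psmb7 and Psmd9; 5.71%, against 7.59%). Psmd9 passed that p in the fits without any single tumour except HdhQ7/Q7 replicate 3 or HdhQ111/Q111 replicate 3. Psmb11 did not pass it without HdhQ7/Q7 replicate 1 or 2 or HdhQ111/Q111 replicate 3 or 4.

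The size of the differences was bounded. The median SE of a log2 fold change was 0.10, and for 34 of 35 genes the 95% confidence interval, which is not adjusted for the number of genes, lay within a 1.5-fold difference in either direction, compared with 86.6% of all genes. The exception was Psma3, whose interval reached 0.63. These intervals are for values as deposited. Centring the arrays on their medians lowers every log2 fold change by 0.068, so which interval passes the bound can depend on the scaling. The plot of fold changes by role shows this.

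**Figure D1:**
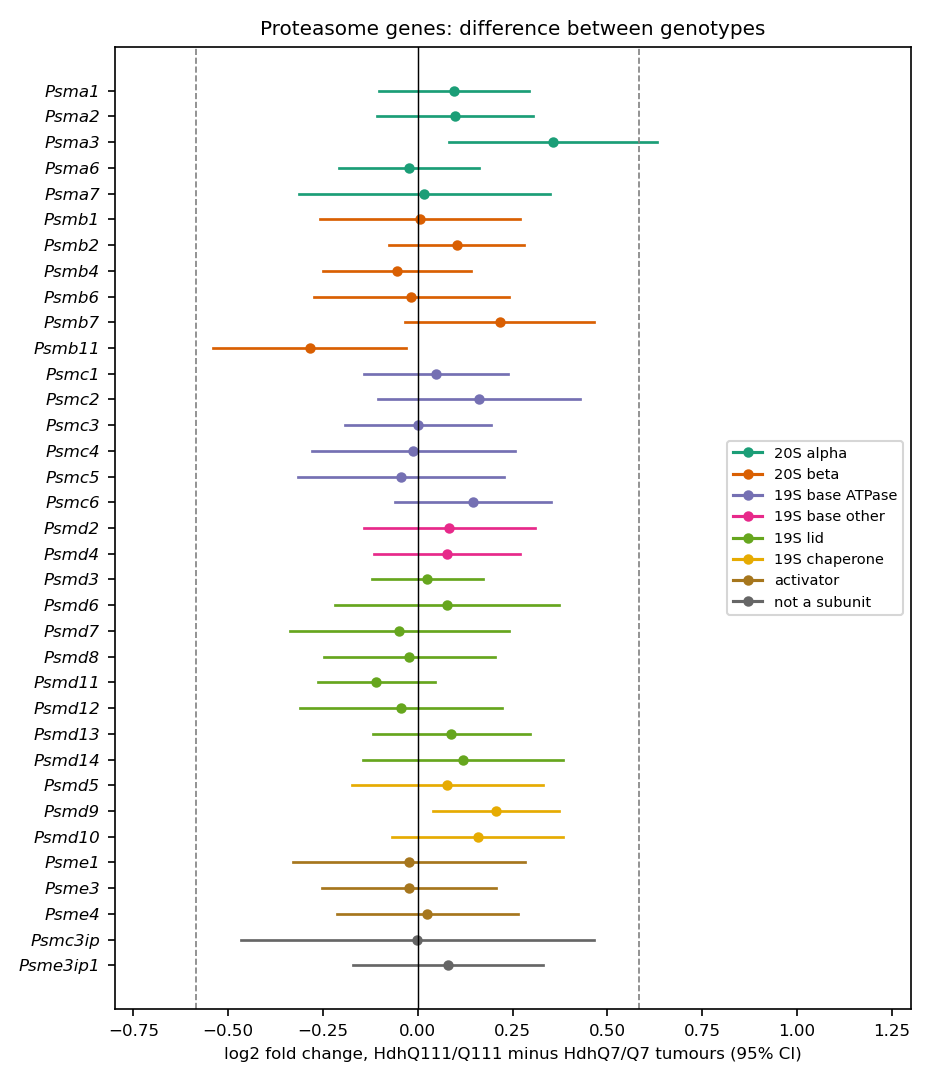
Log2 fold change (HdhQ111/Q111 minus HdhQ7/Q7, x axis) of the 35 proteasome genes, grouped and coloured by role, with points for the estimate and lines for the 95% confidence interval from limma (4 tumours per genotype). Dashed lines mark a 1.5-fold difference, and with values as deposited only the interval of Psma3 crosses one.

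Sequences upstream of these genes were examined for features that the choice by symbol did not use. RefSeq promoter windows of 300 bases around the start site (GRCm38.p6) were at hand for 29 of the 35 genes, 32 windows in all. Matches to 3 motifs were searched on both strands, and none of the motifs contains another. CCGGAAG, a core that ETS factors bind, was in the windows of 14 of the 29 genes (48.3%), against 14.4% of all genes measured on the arrays and 20.95% of those with a mean log2 signal of at least 10. Without Psmc3ip and Psme3ip1, which the choice by symbol caught although they are not subunits, it was in 12 of 27 genes (44.4%). The 29 genes were not chosen by signal, and some of them, such as Psma3 and Psmb11, lay below a mean log2 signal of 10. CCAAT, the box bound by NF-Y, was in 14 genes (48.3%, against 42.4% of genes measured and 42.2% of those with that signal). Without the same 2 genes, CCAAT was in 12 of 27 (44.4%). TGACNNNGC, the core of the antioxidant response element through which NRF1 (Nfe2l1) and NRF2 (Nfe2l2) act on proteasome genes, shares its TGAC with AP-1 elements. It was in 5 genes (17.2%, against 15.7% of genes measured and 17.7% of those with that signal): Psmb6, Psmc6, Psmd9, Psmd12 and Psme4. Without the same 2 genes its share was 18.5%. These are matches of letters, without a test.

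None of the 3 beta-ring genes with a window (Psmb4, Psmb6, Psmb11) and none of the 3 base chaperones had the ETS core. It was also absent from Psma1, Psma2, Psma3 and Psma7 of the alpha ring, and from Psmc4 and Psmc5 of the base. Psmd8 and Psmd14 of the lid and the activator Psme1 lacked it too. The core was in the base ATPases Psmc1, Psmc2 and Psmc6, the other base subunits Psmd2 and Psmd4, and the lid subunits Psmd6, Psmd11, Psmd12 and Psmd13. Psma6 of the alpha ring and the activators Psme3 and Psme4 also had it. The windows of 4 of these genes are printed 5′ to 3′ on the strand of the gene, with the match in capitals, to show that the core lies on either strand and often close to the start site: its first printed base is at position -24 in Psmc2 (chr5:21786497-21786796, + strand), -100 in Psmc6 (chr14:45329574-45329873, +), -26 in Psmd2 (chr16:20651402-20651701, +) and -11 in Psmd11 (chr11:80428365-80428664, +). CTTCCGG is the same core read on the other strand. The window of Psmd9 (chr5:123227940-123228239, +) is shown for the member without overlap between genotypes, with its TGACNNNGC match at position -31 in capitals.
Psmc2: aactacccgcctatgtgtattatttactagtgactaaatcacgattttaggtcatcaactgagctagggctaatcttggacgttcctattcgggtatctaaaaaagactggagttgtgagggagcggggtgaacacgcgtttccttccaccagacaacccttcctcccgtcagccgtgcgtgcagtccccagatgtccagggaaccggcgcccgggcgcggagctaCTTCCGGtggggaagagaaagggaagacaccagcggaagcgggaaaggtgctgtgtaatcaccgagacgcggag
Psmc6: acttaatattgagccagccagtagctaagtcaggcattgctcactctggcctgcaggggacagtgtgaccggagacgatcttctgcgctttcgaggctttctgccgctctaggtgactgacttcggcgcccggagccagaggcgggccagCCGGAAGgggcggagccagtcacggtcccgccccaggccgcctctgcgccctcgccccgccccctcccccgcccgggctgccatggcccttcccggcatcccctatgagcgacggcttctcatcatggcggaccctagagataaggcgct
Psmd2: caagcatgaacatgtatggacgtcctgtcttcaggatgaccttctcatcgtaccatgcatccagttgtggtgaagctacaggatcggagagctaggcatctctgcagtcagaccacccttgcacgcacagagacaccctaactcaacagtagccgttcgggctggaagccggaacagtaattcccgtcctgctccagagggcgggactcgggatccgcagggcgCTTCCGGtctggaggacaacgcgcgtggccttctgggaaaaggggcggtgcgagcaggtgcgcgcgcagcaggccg
Psmd11: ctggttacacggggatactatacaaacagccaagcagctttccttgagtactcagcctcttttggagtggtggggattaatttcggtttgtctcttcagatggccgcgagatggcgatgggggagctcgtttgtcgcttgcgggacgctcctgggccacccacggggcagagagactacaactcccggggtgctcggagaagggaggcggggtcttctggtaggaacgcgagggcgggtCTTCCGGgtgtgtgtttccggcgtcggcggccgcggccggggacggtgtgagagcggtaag
Psmd9: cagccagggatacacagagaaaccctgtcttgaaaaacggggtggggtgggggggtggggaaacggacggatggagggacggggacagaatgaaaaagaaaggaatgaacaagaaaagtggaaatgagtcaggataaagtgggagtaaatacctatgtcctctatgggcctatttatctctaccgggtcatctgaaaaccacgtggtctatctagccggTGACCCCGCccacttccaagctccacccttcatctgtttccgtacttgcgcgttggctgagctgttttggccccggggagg

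Of the alpha ring, 5 of the 8 genes listed were measured, and their median log2 fold change was 0.10. Psma3 encodes one of these subunits. Its log2 signal was 5.07, 4.77, 5.09 and 5.28 in HdhQ7/Q7 replicates 1 to 4 and 5.35, 5.24, 5.58 and 5.47 in HdhQ111/Q111 replicates 1 to 4. HdhQ7/Q7 replicate 4 reached above the lowest HdhQ111/Q111 tumour, and the other HdhQ7/Q7 tumours lay below all of that genotype. The difference was 1.28-fold (log2 fold change 0.36 ± 0.12 (SE), limma p = 0.0168, adjusted p = 0.572; two-sided exact permutation p = 0.0571). The Psma3 probe set was dim, above only 14.9 to 23.3% of probe sets depending on the array, and the bright alpha subunits Psma1, Psma2, Psma6 and Psma7 had log2 fold changes from -0.02 (Psma6) to 0.10 (Psma2).

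Of the beta ring, 6 of 8 genes were measured, with a median log2 fold change of -0.01. Psmb6 and Psmb7 encode the catalytic subunits beta1 and beta2 of the standard core. Psmb7 was at 10.27, 10.45, 10.38 and 10.16 in HdhQ7/Q7 and at 10.43, 10.41, 10.81 and 10.49 in HdhQ111/Q111 tumours. The groups overlapped, and HdhQ111/Q111 replicate 3 was the highest by a clear margin (log2 fold change 0.22 ± 0.11 (SE), limma adjusted p = 0.659). Psmb6 was at 10.95, 11.18, 10.82 and 11.17 in HdhQ7/Q7 and at 10.87, 10.90, 11.10 and 11.19 in HdhQ111/Q111 tumours. Both genotypes held a pair of high and a pair of low tumours for Psmb6 (log2 fold change -0.02 ± 0.11 (SE), limma adjusted p = 0.979).

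Psmb11, which encodes the catalytic subunit of the thymus form of the core, was the lowest of the 35 by fold change. It was at 6.05, 5.93, 5.76 and 5.67 in HdhQ7/Q7 and at 5.64, 5.71, 5.56 and 5.34 in HdhQ111/Q111 tumours. HdhQ111/Q111 replicate 2 lay just above the lowest HdhQ7/Q7 tumour (log2 fold change -0.28 ± 0.11 (SE), limma p = 0.0324, adjusted p = 0.616; two-sided exact permutation p = 0.0571). Its probe set was also dim, above 20.9 to 29.2% of probe sets. When the dimmest 40% of probe sets were left out, 33 of the 35 genes remained, Psma3 and Psmb11 being the ones lost, so that 1 gene was higher and 0 were lower at an unadjusted p of at most 0.05. The shares over the array in that fit are not given here.

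All 6 ATPases of the 19S base were measured, with a median log2 fold change of 0.02 and a range from -0.04 (Psmc5) to 0.16 (Psmc2). Psmc6 was at 10.23, 10.27, 10.27 and 10.17 in HdhQ7/Q7 and at 10.33, 10.17, 10.49 and 10.54 in HdhQ111/Q111 tumours (log2 fold change 0.15 ± 0.09 (SE), limma adjusted p = 0.710). Psmc2 was at 9.27, 9.35, 9.52 and 9.22 in HdhQ7/Q7 and at 9.36, 9.29, 9.72 and 9.63 in HdhQ111/Q111 tumours (log2 fold change 0.16 ± 0.12 (SE), limma adjusted p = 0.742). For both, HdhQ111/Q111 replicates 3 and 4 lay above every other tumour and replicates 1 and 2 within or near the HdhQ7/Q7 range. The SD was larger in HdhQ111/Q111 tumours for all 6 ATPases as deposited, with medians of 0.187 against 0.0645, and for 5 of 6 after centring, with medians of 0.140 against 0.0817.

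The other base subunits Psmd2, a scaffold that binds ubiquitin-like domains, and Psmd4, a ubiquitin receptor, had log2 fold changes of 0.08 and 0.08, neither past the threshold (limma adjusted p = 0.848 and 0.832). Psmd1 had no probe set of its own. All 8 lid subunits with Psm names were measured, 4 with positive and 4 with negative values, from -0.11 (Psmd11) to 0.12 (Psmd14, the deubiquitinase). Sem1, a lid subunit without such a name, had a larger log2 fold change of 0.30 and is described with the assembly factors below. Psmd11, a scaffold subunit of the lid, was at 11.68, 11.81, 11.67 and 11.60 in HdhQ7/Q7 and at 11.54, 11.63, 11.57 and 11.60 in HdhQ111/Q111 tumours. Unlike most members it was not high in HdhQ111/Q111 replicates 3 and 4, and the genotypes overlapped (log2 fold change -0.11 ± 0.07 (SE), limma adjusted p = 0.710).

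Psmd5, Psmd9 and Psmd10 encode chaperones that help to assemble the base and leave the finished particle. All 3 had positive log2 fold changes, with a median of 0.16. Psmd9 was at 8.87, 8.79, 8.74 and 8.86 in HdhQ7/Q7 and at 8.93, 9.04, 9.16 and 8.97 in HdhQ111/Q111 tumours. Every HdhQ111/Q111 tumour lay above every HdhQ7/Q7 tumour, a difference of 1.15-fold (log2 fold change 0.21 ± 0.07 (SE), limma p = 0.0213, adjusted p = 0.592; two-sided exact permutation p = 0.0286, the smallest that 4 against 4 tumours can give). After the arrays were centred on their medians, the Psmd9 values overlapped and no gene was left without overlap. Psmd10, also known as gankyrin, was at 9.87, 9.91, 9.91 and 10.03 in HdhQ7/Q7 and at 10.10, 9.85, 10.30 and 10.12 in HdhQ111/Q111 tumours. Its HdhQ111/Q111 replicate 2 was the lowest of the 8 tumours and the other tumours of that genotype were the highest (log2 fold change 0.16 ± 0.10 (SE), limma adjusted p = 0.712). Psmd5 had a log2 fold change of 0.08 (limma adjusted p = 0.872).

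Of the alternative activators, which open the core without the 19S particle, Psme3 (PA28gamma, nuclear) had a log2 fold change of -0.02 and Psme4 (PA200) of 0.03, a sign that turned to -0.04 when arrays were centred on their medians. Psme1, the PA28alpha subunit, which interferon-gamma induces, was at 10.55, 10.004, 10.02 and 10.24 in HdhQ7/Q7 and at 10.004, 10.15, 10.34 and 10.21 in HdhQ111/Q111 tumours. It was highest in HdhQ7/Q7 replicate 1, and the genotypes overlapped (log2 fold change -0.02 ± 0.13 (SE), limma adjusted p = 0.977). The choice by symbol also caught Psmc3ip, a meiotic recombination factor, and Psme3ip1, a protein that binds PA28gamma, which are not proteasome subunits. Their log2 fold changes were -0.0016 and 0.08. With these, Psmb11, the chaperones and the activators left out, the 26 genes of the core and regulatory particle had a median log2 fold change of 0.04.

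The genes varied together among the HdhQ111/Q111 tumours. HdhQ111/Q111 replicates 3 and 4 were each the highest tumour of their genotype for 16 of the 35 genes (45.7%), compared with 30.0% and 29.8% of all genes. Replicate 2 was the highest for 3 genes, Psmb11, Psmd3 and Psmd11, and replicate 1 for 0. Among all 8 tumours, replicates 3 and 4 were the highest for 15 genes each (42.9%, against 20.03% and 15.6% of all genes). In the plot of all genes by tumour these are the red columns.

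**Figure D2:**
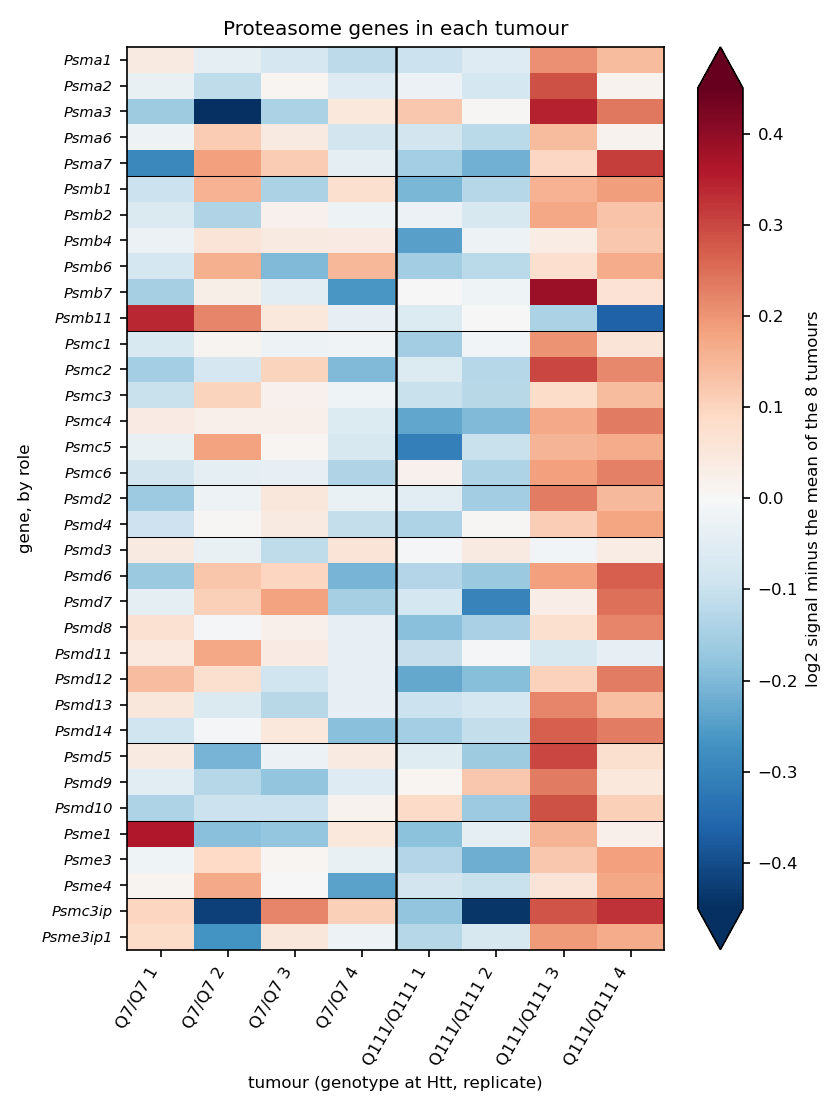
Log2 signal of each of the 35 proteasome genes (rows, by role) in each of the 8 tumours (columns), as the difference from the mean of the 8 tumours (colour scale, log2, with values past the ends drawn in the end colours). HdhQ111/Q111 replicates 3 and 4 are above the mean for most genes and replicates 1 and 2 below it, with Psmb11 and Psmd11 among the exceptions.

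The median deviation of the 35 genes from the 8-tumour mean was -0.10, -0.11, 0.17 and 0.17 on the log2 scale in HdhQ111/Q111 replicates 1 to 4, and -0.03, 0.00, 0.01 and -0.04 in HdhQ7/Q7 replicates 1 to 4. Over all 14860 genes the same measure stayed between -0.03 and 0.03. The SD was larger in HdhQ111/Q111 tumours for 28 of the 35 genes (80%, against 51.9% of all genes), with a median of 0.163 against 0.0883 in HdhQ7/Q7 tumours. Over all genes these medians were 0.126 and 0.123.

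The deviations and the order of the tumours depended on how the arrays were scaled. Array medians ran from 7.58 to 7.74 and were highest in HdhQ111/Q111 replicates 3 (7.74) and 4 (7.68). After each array was centred on its median, the deviations of the 35 genes were -0.10, -0.09, 0.07 and 0.12 in HdhQ111/Q111 and 0.01, 0.06, 0.05 and -0.04 in HdhQ7/Q7 tumours. Over all genes they were then -0.01, -0.01, -0.08 and -0.02 in HdhQ111/Q111 and 0.05, 0.03, 0.03 and -0.02 in HdhQ7/Q7 tumours. HdhQ111/Q111 replicates 3 and 4 were then the highest of their genotype for 12 and 19 genes (34.3% and 54.3%, against 15.2% and 26.5% of all genes). HdhQ7/Q7 replicate 2 was the highest of all 8 for 9 genes (25.7%, against 16.9%). HdhQ111/Q111 replicates 3 and 4 were the highest of all 8 for 10 and 9 genes (28.6% and 25.7%, against 8.09% and 10.3%). The SD was then larger in HdhQ111/Q111 for 24 genes (68.6%, against 52.2% of all genes), and its medians were closer, at 0.124 in HdhQ111/Q111 and 0.107 in HdhQ7/Q7 tumours. Over all genes these medians were then 0.129 and 0.126. The HdhQ111/Q111 median of the 35 genes was thus no larger than that of all genes.

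Other gene groups moved with this order. The median deviation of 26 cell cycle genes was 0.56 and 0.47 in HdhQ111/Q111 replicates 3 and 4, -0.14 and -0.08 in replicates 1 and 2, and -0.12, -0.09, -0.05 and -0.53 in the HdhQ7/Q7 tumours. That of the 7 skeletal muscle markers was 1.76 and 1.87 in HdhQ111/Q111 replicates 3 and 4, -1.15 and -0.98 in replicates 1 and 2, and between -1.04 and 0.18 in the HdhQ7/Q7 tumours. Adipocyte markers had another order, with 2.52 in HdhQ111/Q111 replicate 1 and 0.90 in replicate 3. Between genotypes, 9 of the 26 cell cycle genes, 7 of 10 fibroblast, 3 of 8 basal and myoepithelium, 3 of 8 adipocyte and 3 of 8 macrophage markers were higher in HdhQ111/Q111 tumours at an unadjusted p of at most 0.05, against 5.2% of probe sets, with median log2 fold changes of 0.41, 0.53, 0.62, 1.40 and 0.22. Of 12 T and NK cell markers, 5 were lower, against 2.68% of probe sets, with a median of -0.11. None of the 7 skeletal muscle, 11 luminal, 9 endothelial or 5 B cell markers passed that p in either direction. The part of proliferation, other cell types or array level in the proteasome values was not tested.

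**Figure D3:**
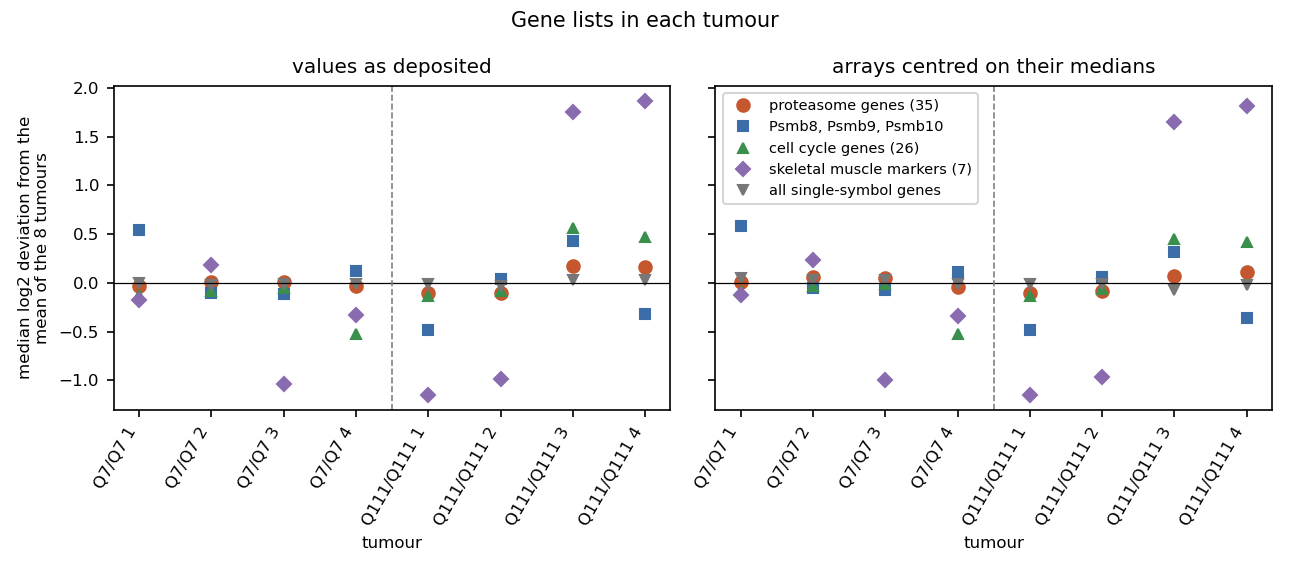
Median log2 deviation from the mean of the 8 tumours (y axis) in each tumour (x axis) for the 35 proteasome genes, the 3 inducible subunits, 26 cell cycle genes, 7 skeletal muscle markers and all 14860 genes, with values as deposited (left) and with arrays centred on their medians (right). The proteasome, cell cycle and muscle groups are highest in HdhQ111/Q111 replicates 3 and 4, while the inducible subunits are high in replicate 3 and low in replicate 4.

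The inducible subunits shared this order only in part. Psmb8, Psmb9 and Psmb10 replace the standard catalytic subunits in the immunoproteasome when interferon-gamma is present. Psmb8 was at 9.77, 9.35, 9.29 and 9.25 in HdhQ7/Q7 and at 8.29, 9.04, 9.26 and 8.82 in HdhQ111/Q111 tumours. It was 1.48-fold lower in HdhQ111/Q111 tumours (log2 fold change -0.57 ± 0.21 (SE), limma p = 0.0254, adjusted p = 0.599; two-sided exact permutation p = 0.0571), with an overlap between the highest tumour of that genotype and the lowest of the other. Psmb9 and Psmb10 had log2 fold changes of -0.13 ± 0.25 and -0.05 ± 0.17 (SE), with limma adjusted p-values of 0.910 and 0.956. Of the tumours high in the constitutive genes, HdhQ111/Q111 replicate 3 was the highest of its genotype in all 3 inducible genes and replicate 4 was low in all 3, while HdhQ7/Q7 replicate 1 was the highest HdhQ7/Q7 tumour in each. Of 20 interferon response genes, 11 were lower at an unadjusted p of at most 0.05, against 2.68% of probe sets. These 20 genes had a median log2 fold change of -0.60, and 0 were higher at that p, against 5.2% of probe sets.

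Of the factors that act on the particle, Nfe2l1 encodes NRF1, which raises transcription of proteasome genes when proteasome activity is limiting. It was at 11.10, 11.09, 11.18 and 11.13 in HdhQ7/Q7 and at 10.98, 10.88, 10.89 and 11.04 in HdhQ111/Q111 tumours. All HdhQ111/Q111 tumours lay below all HdhQ7/Q7 tumours, a difference of 1.13-fold (log2 fold change -0.18 ± 0.07 (SE), limma p = 0.0253, adjusted p = 0.599; two-sided exact permutation p = 0.0286). Nfe2l2, which encodes NRF2, had a log2 fold change of 0.09 (limma adjusted p = 0.857), and the 11 measured genes of the NRF1 and NRF2 pathway had a median of -0.02.

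Of 20 listed assembly factors, inhibitors and proteins bound to the proteasome, 14 were measured, with a median log2 fold change of 0.10. Values were positive for 13 (92.9%, against 54.8% of all genes), and the signs of such small values can depend on the scaling. At an unadjusted p of at most 0.05, 1 gene was higher, against 5.2% of probe sets. That gene was Sem1, a small lid subunit outside the Psm names. It was at 9.14, 9.50, 9.39 and 9.37 in HdhQ7/Q7 and at 9.50, 9.51, 9.83 and 9.75 in HdhQ111/Q111 tumours, with all but HdhQ7/Q7 replicate 2 below the other genotype (log2 fold change 0.30 ± 0.11 (SE), limma p = 0.0247, adjusted p = 0.595; two-sided exact permutation p = 0.0571). Psmg2, a chaperone of the alpha ring, had a log2 fold change of 0.20 ± 0.11 (SE), and Pomp, the maturation protein of the core, one of 0.03 that turned to -0.04 with centred arrays. Of 18 listed ubiquitin precursors, ubiquitin enzymes and shuttle factors, 8 were measured, 0 passed an unadjusted p of 0.05 in either direction, and the median was -0.02.

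**Figure D4:**
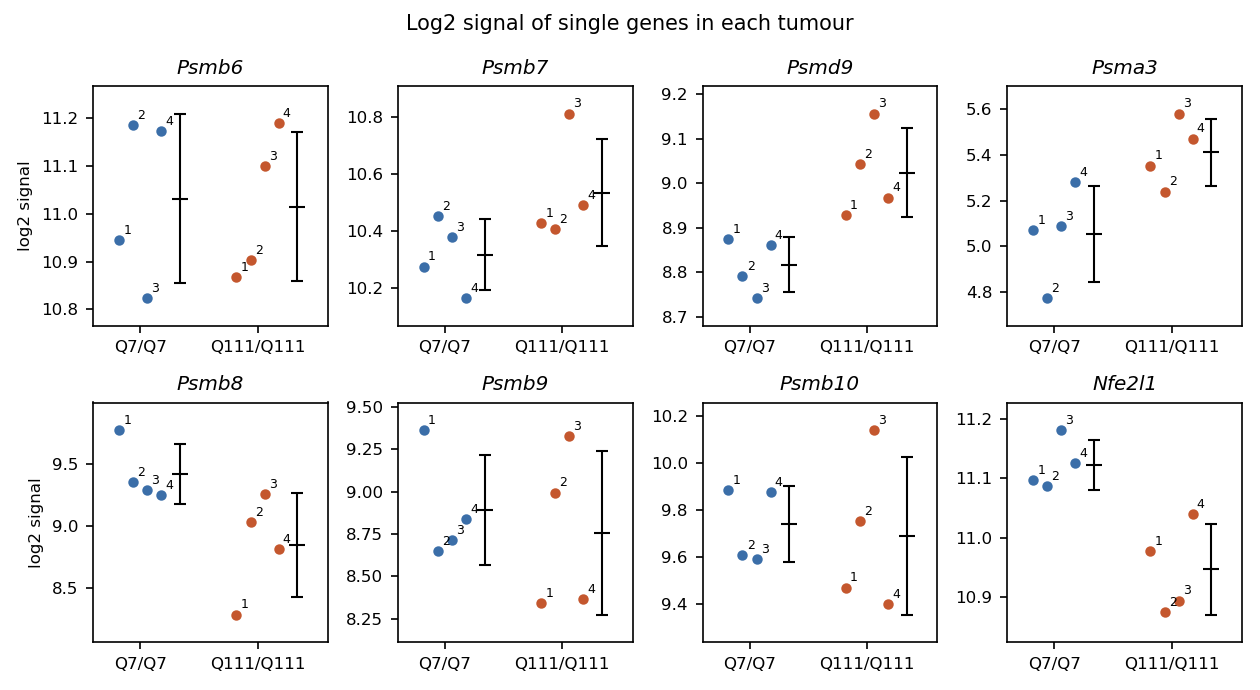
Log2 signal (y axis, a range of its own in each panel) of 8 genes in each tumour, with points numbered by replicate and bars for the mean ± SD of each genotype (n = 4). As deposited, Psmd9 (higher in HdhQ111/Q111, with an overlap once arrays are centred) and Nfe2l1 (lower) do not overlap between genotypes, while Psmb6, Psmb7, Psma3 and the inducible Psmb8, Psmb9 and Psmb10 do.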

How the data were processed

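The authors had amplified total RNA from 4 tumours per genotype and hybridised labelled DNA made from it to Affymetrix Mouse Exon 1.0 ST arrays. The deposited table holds log2 signals per probe set, in the core set of an mm9 annotation per the labels. The study's methods describe quantile normalization, with antigenomic probes as the background, for its gene-level tests. Whether this was applied to the deposited table is not stated, and its array medians were not equal. Array medians differed by less than 0.2, so the values were used as deposited, without a filter. Of 23332 probe sets, 14996 had 1 gene symbol in the platform annotation, 1019 several and 7317 none. Genes without a single-symbol probe set (Psma4, Psma5, Psma8, Psmb3, Psmb5, Psmd1, Psme2, Adrm1) were not analysed here.

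The fit used limma 3.58.1 under R 4.3.3 (two-sided, Benjamini-Hochberg adjustment over all probe sets), which was tested on simulated data. Named genes were the members at an unadjusted p of at most 0.05, the extremes of each role, catalytic and activator subunits, Nfe2l1, Nfe2l2, Pomp and Htt, and up to 2 genes of smallest p in each other list, with values per tumour for the 8 members of smallest p. Genes named only for motifs, tumour order or single values (among them Ckm, Epcam and Cdh1) were chosen after their values were seen. The members and lists were chosen with earlier results of these data known. The number of arrays limits the precision. Figures were drawn with matplotlib 3.10.9.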

Additional observations from a re-analysis of the deposited data

Results flagged for a closer look

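Of 106 groups of 4 tumours tested (53 genes in each genotype), 1 held a tumour far from the others, and chance alone marks about 1 group in 20. It was Psmc4, an ATPase of the 19S base, in HdhQ7/Q7 tumours: replicate 4 was at a log2 signal of 10.28 while the other tumours of that genotype lay between 10.37 and 10.38.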

How the results depend on the processing

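No gene passed the study's thresholds, or an adjusted p of 0.05, under any alternative run: array weights, quantile normalization, centring, the filter on dim probe sets, the replicate block, robust fitting with a variance trend, the methods' t-test and each tumour left out. The count of genes higher at an unadjusted p of at most 0.05 was 2 as reported. It was 1 with quantile normalization (against 3.65% of probe sets), with centred arrays (2.71%) and without the dimmest 40% of probe sets. With single tumours left out it was 1 to 4, against 3.71 to 6.74% of probe sets. The count of lower genes, 1 as reported, was 0 without the dimmest 40%. It was 0 to 1 with single tumours left out (1.96 to 3.07% of probe sets). The count without overlap, 1 as reported, was 0 with centred arrays (5.58%) and 1 to 5 with single tumours left out (6.4 to 9.72%). Shares over the array are not given here for the fit without dim probe sets. The median log2 fold change of the members ran from -0.04 with centred arrays to 0.09 without HdhQ111/Q111 replicate 2, within the spread between tumours. Each gene has 1 single-symbol probe set, so the mean over probe sets gave the same median.

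Log2 fold changes near 0 changed sign. That of Psme4 was -0.0020 with array weights and -0.042 with centred arrays, and that of Pomp -0.039 with centred arrays. With single tumours left out, the range was -0.075 to 0.013 for Psma6, -0.11 to 0.051 for Psmc5, -0.0090 to 0.14 for Psmd5, -0.050 to 0.087 for Psme4, -0.090 to 0.092 for Psme1, -0.086 to 0.034 for Psmb6, -0.32 to 0.025 for Psmb9, -0.20 to 0.048 for Psmb10, -0.089 to 0.046 for Psme3, -0.023 to 0.063 for Pomp and -0.14 to 0.14 for Psmc3ip. The cause of these changes was not tested.

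The labels give both genotypes replicate numbers 1 to 4, but tumours with the same number did not deviate together (correlations of deviations from the genotype means 0.03, -0.09, 0.02 and -0.19). No HdhQ7/Q7 tumour correlated best with the HdhQ111/Q111 tumour of its own number. Such deviations cancel out within a genotype and also hold differences between tumours, so low correlations cannot exclude a shared batch or origin. With the replicate number as a block, 1 gene was higher at an unadjusted p of at most 0.05, and the share over the array in that fit is not given here. Dim probe sets (Psma3, Psmb11) rank low on every array, which limits what their values show.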
